A study of Caenorhabditis elegans with 2 samples.

Results

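The genes described are the small nucleolar RNA (snoRNA) genes of Caenorhabditis elegans that lie wholly inside the span of a protein-coding gene. They were chosen from the Ensembl annotation of the build WBcel235 alone, by biotype and position, with no measured value. Of 346 annotated snoRNA genes, 216 met the rule and 130 lay outside protein-coding genes, among 46926 annotated genes in all. The 216 sat in 188 host genes, and 24 hosts held more than 1 of them. Their length was 54 to 325 bases with a median of 127, and each of the 216 spans was the same in RefSeq. Their starts lay 57 to 46394 bp from the start of the host, with a median of 2040 bp. Of the 216, 183 were on the strand of the host and 33 on the opposite strand. In all, 172 lay between the host's exons and 44 overlapped an annotated exon of the host.

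snoRNAs guide chemical marks onto ribosomal RNA and other small RNAs in the nucleolus. Box C/D snoRNAs work with fibrillarin in the methylation of ribose, and box H/ACA snoRNAs work with dyskerin in the change of uridine to pseudouridine. In animals many snoRNAs are cut out of the introns of host genes, often genes for ribosomal proteins and other parts of the translation machinery. Others are transcribed from a promoter of their own, and in nematodes snoRNA genes with their own promoter are known within introns too.

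The assay was chromatin immunoprecipitation with sequencing (ChIP-seq) of the homeobox protein CEH-82 (gene F45C12.2), fused at its C terminus to GFP and FLAG. Both samples were biological replicates of 1 group: whole larvae at stage L4, both sexes pooled, of strain OP212. This is 1 transgenic line, whose genotype in the labels is unc-119(ed3) with ddEx58. That name has the form used for extrachromosomal arrays, but an insertion is also named in the labels, and the form of the transgene was not settled. The labels name no promoter for the transgene and no tissue, and no untreated or untagged group was analysed here, so no gene below is shown to be bound by CEH-82. The authors' ce11 lists held 15658 peaks for the pooled reads, 4561 for replicate 1 and 8651 for replicate 2, with 57 peaks in their thresholded list. The 3 long lists are relaxed and include background by their own description. The depth of the libraries is unknown. Each peak has a signal value, a score from the authors' peak caller whose scale the sources leave unstated, and it is used only to describe and rank peaks within 1 list. A summit, the peak's highest point, is called at a gene when it lies within 500 bp of the gene's annotated start. Distances are negative upstream of the start on the gene's own strand.

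Nested snoRNA genes often had a summit at the start. The pooled list placed a summit within 500 bp of 107 of the 216, or 49.5% (exact 95% interval 42.7 to 56.4), against 38.5% of the snoRNA genes outside protein-coding genes (50 of 130, interval 30.1 to 47.4). The same share was 22.0% of 4180 other noncoding genes nested in protein-coding genes, 19.0% of 19985 protein-coding genes and 19.6% of 31563 genes of all kinds without piRNA genes. The starts of the 188 host genes themselves had a pooled summit in 37.2% (70, interval 30.3 to 44.6). Intervals cover counting error only, and the interval of the nested snoRNA genes overlaps those of the outside snoRNA genes and of the host starts. Of all bases inside protein-coding genes, 15% lay within 500 bp of a pooled summit.

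The 1000 pooled peaks of highest signal value were looked at in the same way. One of these lay at 41 nested snoRNA genes, 19.0% (14.0 to 24.9), against 13.1% of the outside snoRNA genes (7.81 to 20.1), 2.70% of the other nested noncoding genes, 2.21% of protein-coding genes and 2.64% of all genes. Host gene starts had one in 23 of 188 (interval 7.92% to 17.8%), which overlaps the interval of the nested snoRNA genes. Such a peak was within 500 bp of 0.901% of the bases inside protein-coding genes. The strongest summit at the 107 genes had a median signal value of 4.85, against 4.77 at the outside snoRNA genes, 4.45 at the host starts and 3.27 over all genes with a summit.

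**Figure D1:**
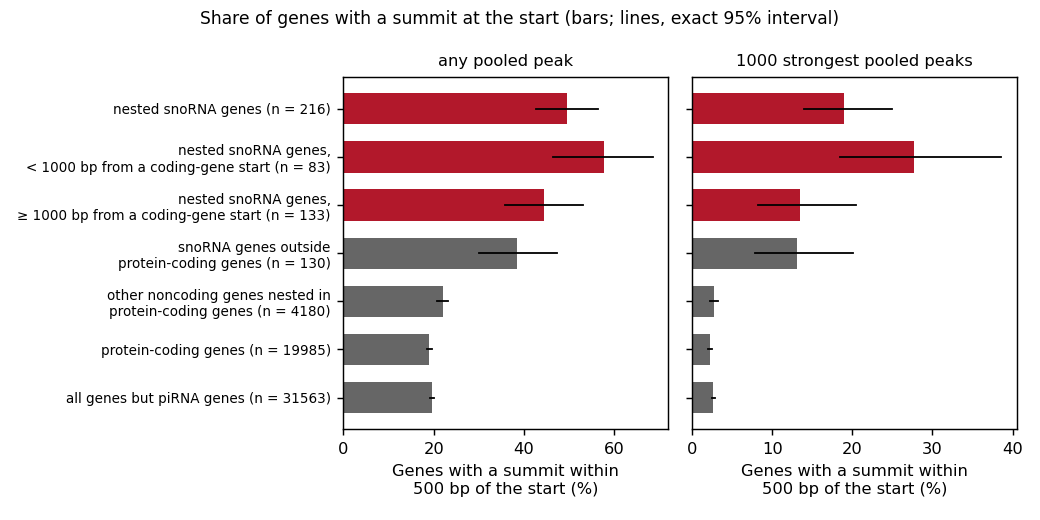
Percent of genes with a pooled summit (left) or 1 of the 1000 strongest pooled summits (right) within 500 bp of the start. Bars give the share and lines its exact 95% interval. Each of the 3 bars of nested snoRNA genes (red) is longer than those of other noncoding, protein-coding and all genes in both panels.

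Around the start of the nested snoRNA genes, summits were most frequent in the 100 bp just upstream, at 9.26 summits per 100 genes. The outside snoRNA genes had 12.3 there, and the starts of the host genes had 7.45 in the 100 bp upstream of the host start. Other nested noncoding genes had 3.52 in the 100 bp upstream and 3.59 in the 100 bp downstream. The bins of the nested snoRNA genes scattered widely. They held 0.926 summits per 100 genes from −500 to −400 bp and 7.41 from −400 to −300 bp. The nearest summit of the 107 genes lay between −388 and 490 bp, with a median of −7 bp and quartiles of −140.5 and 206 bp. It was upstream in 54 and at or downstream of the start in 53. It was within 100 bp in 35 of 107 (32.7%), against 46.0% of the outside snoRNA genes with a summit and 28.3% of all genes with one. In other nested noncoding genes with a summit the share was nearly the same, at 32.5% (298 of 918). Pooled peaks were 370 bp wide apart from 7, so distances shorter than that are poorly resolved.

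**Figure D2:**
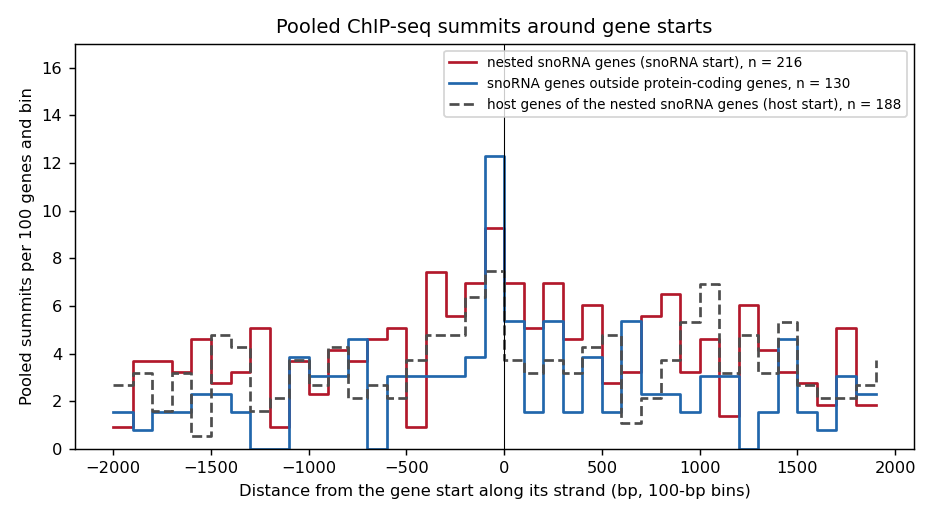
Pooled summits per 100 genes in 100-bp bins, out to 2000 bp on either side of the start, for nested snoRNA genes (red), snoRNA genes outside protein-coding genes (blue) and host genes (dashed). The red line is highest in the bin just upstream of the start, at 9.26, and the blue line reaches 12.3 in the same bin.

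The start of the host was often close by. Of the 48 genes with a summit and a protein-coding start under 1000 bp away, the nearest summit was closer to the snoRNA start than to the host start in 34. Over all 107 it was so in 93, but where the host start is over 1000 bp away the window of 500 bp fixes this. That holds for the 59 farther away and for some of the 48, such as F55A11.10, 6154 bp from its host start. All 107 were also picked by a summit near the snoRNA start, so these counts cannot weigh the snoRNA start against the host start. For 32 of the 107, a protein-coding start lay within 500 bp of the strongest summit, for 7 the start of another structured RNA gene did, and for 0 a tRNA gene start did. Of the 216 members, 133 lay 1000 bp or more from every protein-coding start. Of these, 59 had a pooled summit, 44.4% (35.8 to 53.2), and 18 had one of the 1000 strongest, 13.5% (8.22 to 20.5). The outside snoRNA genes as far from protein-coding starts had 34.6% (27 of 78) and, for the 1000 strongest, 12.8% (10 of 78). Other nested noncoding genes as far away had 21.9% and, for the 1000 strongest, 2.40%. The 83 members nearer to a protein-coding start had a summit in 57.8% (48) and one of the 1000 strongest in 27.7% (23). In the 59 distant genes with a summit, the nearest was within 100 bp of the snoRNA start in 24 (40.7%), against 11 of the 48 genes closer to a protein-coding start. The share was also 40.7% (11 of 27) in the outside snoRNA genes as far away. For other nested noncoding genes as far away it was 32.5%.

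At the 133 distant members, the snoRNA start and the host start could be set side by side. A pooled summit lay at both starts in 21, at the snoRNA start alone in 38, at the host start alone in 21 and at neither in 53. For the 1000 strongest peaks, 18 members had such a peak at the snoRNA start alone, 13 at the host start alone and 0 at both. These counts are of members, so a peak shared by neighbours is counted again for each of them. Among the 13, the distant members in top-2, in nol-56 and in prp-8 repeat the peak at the start of their host. Among the 18, C51F7.3 and C51F7.4 share a peak. The 18 and the 13 are therefore not counts of separate peaks. In hosts of 5000 bp or longer, the strongest summit was looked for inside the host and within 500 bp upstream of its start. Of 91 such hosts with any summit there, it lay within 500 bp of a nested snoRNA start in 17 and within 500 bp of the host start in 14. With summits inside the host alone, which leaves out those upstream of the host start, it lay at the snoRNA start in 20 of 88, or 22.7% (14.5 to 32.9), and at the host start in 5. The counts at the snoRNA start and at the host start overlap. In pkd-2 the strongest summit lay 221 bp from the snoRNA start and 326 bp from the host start. In K10D3.4 it lay 101 bp and 413 bp from them. Hosts with a snoRNA start close to their own start are included, such as alg-1 at 89 bp. The windows around the snoRNA starts took on average 9.53% of the length of these 88 hosts.

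**Figure D3:**
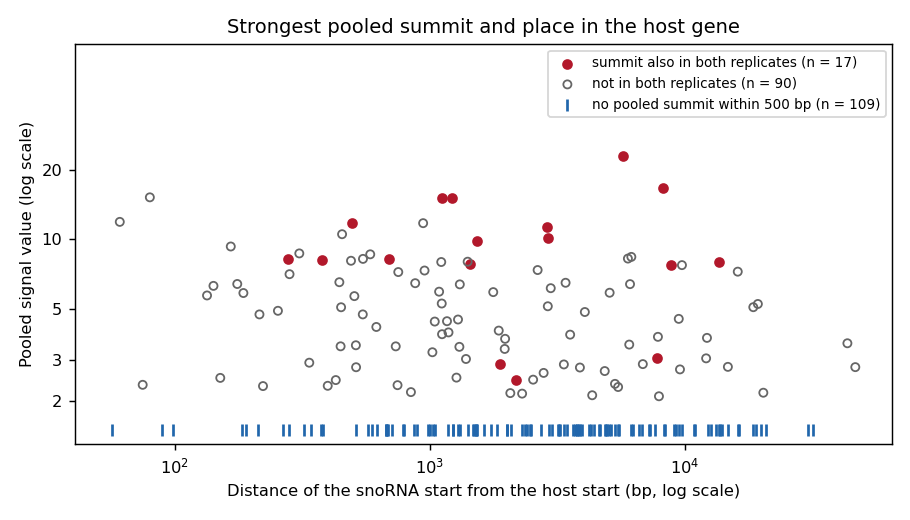
Pooled signal value of the strongest summit within 500 bp of each nested snoRNA gene (y axis, log scale) by distance of its start from the host start (x axis, bp, log scale). Filled points have a summit in both replicates (17), open points do not (90), and ticks at the bottom are the 109 genes with no pooled summit. Values over 10 occur at host distances from 61 to 8203 bp.

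ZK994.7 (WBGene00044958) had the highest signal value of all members and is 1 of 2 with a summit in the authors' thresholded list. It lies at chrV:8500579-8500645 (ce11, plus strand) in an intron of pxn-1, a gene for peroxidasin, an enzyme of the extracellular matrix. Its summit had a signal value of 22.9 in the pooled list, 2.75 in replicate 1 and 19.7 in replicate 2. The pooled summit was 2 bp from the snoRNA start, the summit of replicate 1 was at −30 bp and that of replicate 2 at 9 bp. The start of pxn-1 was 5690 bp away and had no pooled summit within 500 bp. Replicate 2 ranked the peak 19 and replicate 1 ranked it 2082.

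Y55F3BR.9 (WBGene00023183), at chrIV:867056-867133 on the minus strand, is the other. It lies in an intron of Y55F3BR.2 on the opposite strand, 8203 bp from the host start. Signal values were 16.7 in the pooled list, 3.25 in replicate 1 and 13.1 in replicate 2. The strongest pooled summit was at 122 bp, and a weaker one of 2.19 lay at −82 bp. Both thresholded members are far from a protein-coding start, and the thresholded list had a summit at 0.203% of all genes (64).

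C51F7.3 and C51F7.4 lie next to each other in frm-7, a gene for a FERM-domain protein, and shared 1 summit. Its signal value was 15.2 in the pooled list, 5.43 in replicate 1 and 6.60 in replicate 2. It was 70 bp upstream of C51F7.3 (chrV:12303708-12303783) and 39 bp downstream of the start of C51F7.4 (chrV:12303599-12303693). The rank was 68 in the pooled list, 155 in replicate 1 and 371 in replicate 2. The host start, 1224 bp from C51F7.3, had no pooled summit within 500 bp. C51F7.4 overlaps an exon of frm-7 and C51F7.3 lies in an intron. The sequences of both neighbours and of Y55F3BR.9 are shown on the gene strand, 5′ to 3′, from the RefSeq assembly of WBcel235. Capitals mark the box C letters TGATGA and box D letters CTGA in Y55F3BR.9 and C51F7.3. In C51F7.4, which has neither, they mark 2 matches to GTTCNANNC, the letters of the box B of RNA polymerase III promoters.
Y55F3BR.9: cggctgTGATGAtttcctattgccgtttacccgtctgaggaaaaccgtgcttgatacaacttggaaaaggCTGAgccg
C51F7.3: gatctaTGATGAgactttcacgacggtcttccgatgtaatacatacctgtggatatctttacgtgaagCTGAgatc
C51F7.4: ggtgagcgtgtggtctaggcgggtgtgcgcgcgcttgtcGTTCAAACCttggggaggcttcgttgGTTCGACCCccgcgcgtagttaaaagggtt

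Further members far from protein-coding starts had strong summits. F01D5.12, in F01D5.10 and 2889 bp from its start, had signal values of 11.3 in the pooled list, 3.09 in replicate 1 and 7.60 in replicate 2. The pooled summit was at 206 bp and that of replicate 2 at 215 bp, but that of replicate 1 was at −74 bp. C07A9.14 lies on the opposite strand in ncx-7, a gene of the sodium/calcium exchanger family, 2911 bp from the host start. It had 10.2 in the pooled list, 3.39 in replicate 1 and 4.97 in replicate 2, with the summit 33 bp downstream of its start. In C27H6.5, within unc-41 (a stonin of synaptic vesicle recycling), the values were 8.25 in the pooled list and 7.88 in replicate 1, and replicate 2 had no summit in the window. F07A11.15, in din-1 (a co-repressor of the nuclear receptor DAF-12) and 13584 bp from the host start, had 7.96 in the pooled list, 4.31 in replicate 1 and 3.84 in replicate 2. Of the 18 distant members with one of the 1000 strongest peaks, 8 had a summit in both replicates, 6 in replicate 2 only, 2 in replicate 1 only and 2 in neither. The strongest summit was within 100 bp of the start in 9 of the 18.

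**Figure D4:**
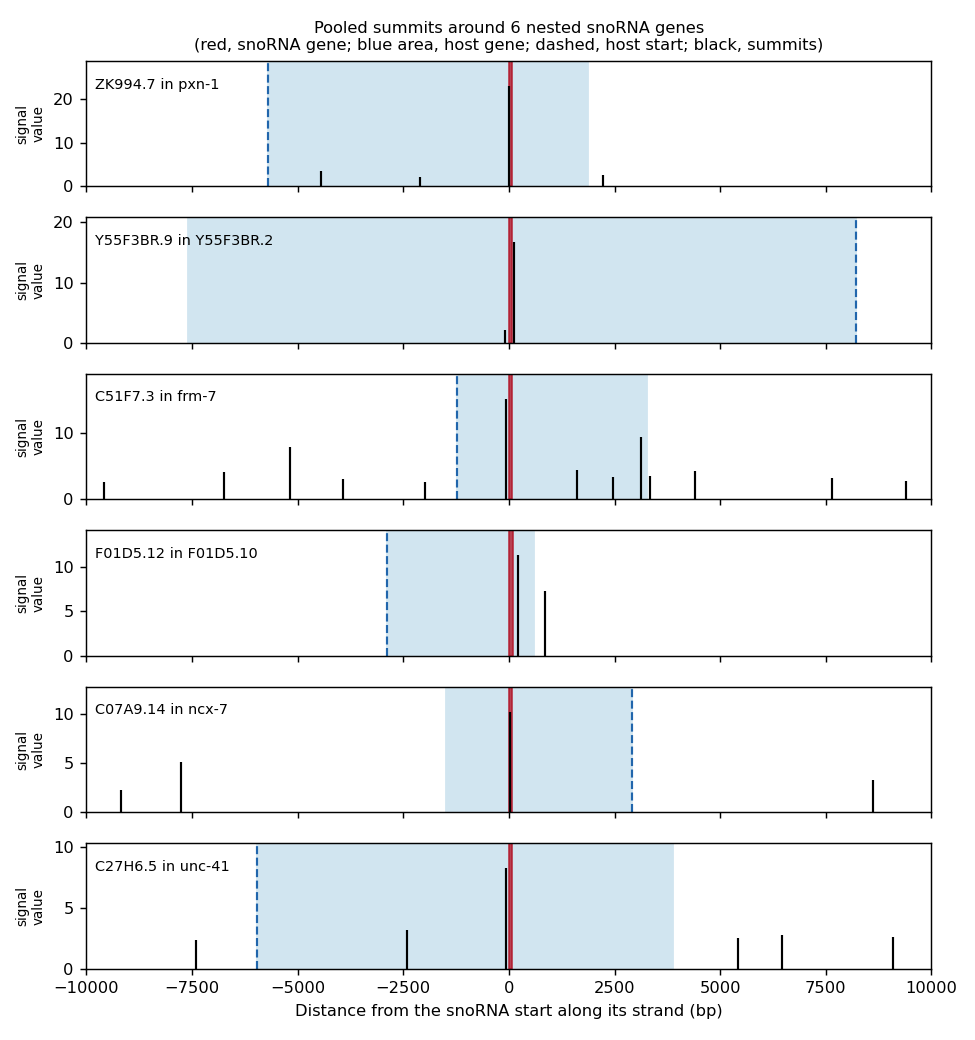
Pooled summits (black lines, height = signal value) within 10000 bp of the start of 6 nested snoRNA genes, the strongest far from protein-coding starts with 1 drawn for each summit, against distance along the snoRNA strand (bp). The snoRNA gene is red, the host blue and the host start dashed. In each panel the tallest line lies within 206 bp of the snoRNA start, and no summit lies within 500 bp of the host start.

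The other 9 of the 15 members with the highest values lay under 1000 bp from a protein-coding start. F54E7.10, in the intron of rps-12 (a protein of the small ribosomal subunit), had 15.2 in the pooled list and 13.1 in replicate 2, with none in replicate 1. Its summit was 246 bp upstream and the host start 80 bp upstream, and the same summit was called at the host start. R151.11, in rpl-6 of the large subunit, had 9.31 in the pooled list and 9.63 in replicate 2, again with the same summit at the host start. H06I04.8, in ubl-1 (a ubiquitin-like protein fused to a ribosomal protein), had 11.7 in the pooled list, 3.64 in replicate 1 and 8.44 in replicate 2, at 340 bp. Each of these hosts encodes a part of the ribosome.

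Others sat in hosts not named as ribosomal protein genes. F39B2.14, in tmem-107 (a protein of the ciliary transition zone), had 11.9 in the pooled list and 4.91 in replicate 2. Its strongest pooled summit was at 488 bp and that of replicate 2 at −119 bp, so the 2 lists did not place the strongest summit alike. D1046.6, in cfim-2 (a factor of mRNA 3′ end cleavage), had 11.7 in the pooled list, at −86 bp, and 9.71 in replicate 2, with no summit at the host start 941 bp away. K02F3.15, in the bZIP factor gene zip-2, had 10.5 in the pooled list at 460 bp and 6.75 in replicate 1 at 208 bp, with none in replicate 2. The gene smy-2, a member by its annotated snoRNA biotype alone, lies in C33A12.3. It had 9.86 in the pooled list, 3.59 in replicate 1 and 6.29 in replicate 2, with the pooled summit at −289 bp. R08C7.19, in chat-1 (a chaperone of a lipid flippase), had 8.69 and Y37E3.22, in Y37E3.8, had 8.61 in the pooled list, both with a summit in replicate 2 only.

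**Figure D5:**
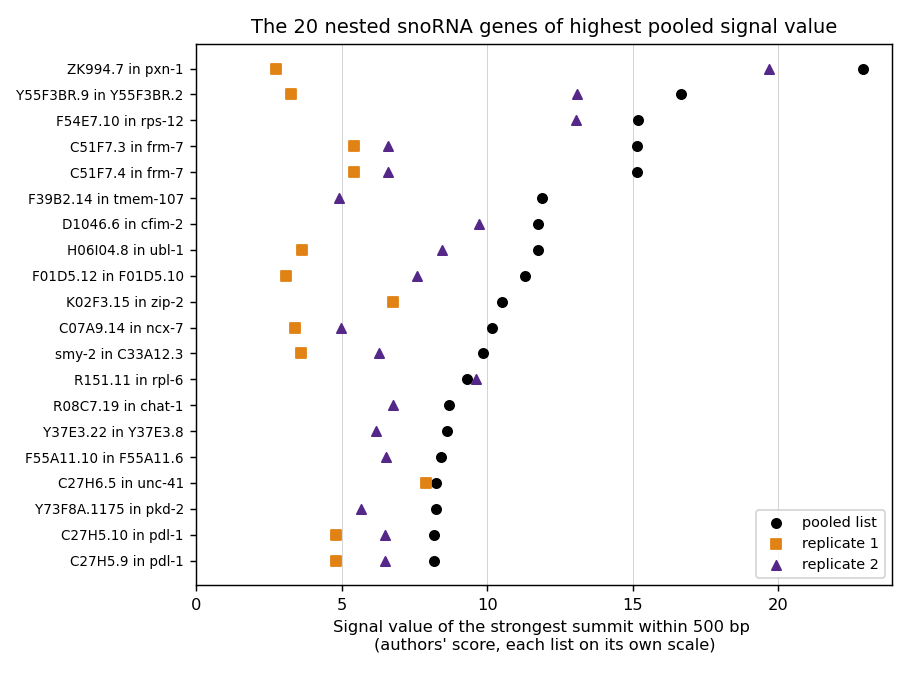
Signal value of the strongest summit within 500 bp of the 20 nested snoRNA genes with the highest pooled value, in the pooled list (circles), replicate 1 (squares) and replicate 2 (triangles); a missing symbol means no summit in the window. Pooled values run from 22.9 at ZK994.7 to 8.18 at C27H5.9 and C27H5.10, and each list is on its own scale.

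The replicates differed in how many members they marked. Replicate 1 had a summit at 34 of the 216 (15.7%, with 6.09% of all genes), with signal values of 2.14 to 7.88 and a median of 3.48. Replicate 2 had one at 71 (32.9%, with 12.0% of all genes), with values of 2.03 to 23.1 and a median of 4.91. Both marked 17 members, 7.87% (4.65 to 12.3), against 2.00% of all genes and 8.46% of the outside snoRNA genes (11 of 130). Replicate 1 had a summit at 15.4% of the outside snoRNA genes and replicate 2 at 27.7%. The list of replicate 2 was also longer, with 8651 peaks against 4561. Of the 107 members with a pooled summit, 17 had one in both replicates, 49 in replicate 2 only, 16 in replicate 1 only and 25 in neither. The 17 had pooled values of 2.46 to 22.9 with a median of 8.18, and the 25 had 2.09 to 7.36 with a median of 2.88. In 9 of the 17 the strongest summits of the replicates lay within 100 bp of each other, and the largest gap was 351 bp. Of the 17, 10 were 1000 bp or more from every protein-coding start. In 6 members a summit ranked among the 1000 strongest of both replicate lists: C51F7.3, C51F7.4, H06I04.8, smy-2, C27H5.9 and C27H5.10. The same count was not made over all genes or the outside snoRNA genes, so whether 6 is many is not known. C27H5.9 and C27H5.10 lie in pdl-1 on the opposite strand. The pooled summit of 8.18 and that of replicate 2, of 6.47, were both at −7 bp of C27H5.9, while that of replicate 1, of 4.80, was at −260 bp. The replicates therefore did not place their strongest summit alike at these neighbours. C51F7.3 and C51F7.4 share 1 summit in each list, so the 6 members are not 6 separate sites.

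Ribosomal protein genes were the host of 19 members, in 13 hosts. A pooled summit lay at 14 of the 19, 73.7% (48.8 to 90.9), against 47.4% of the 192 members in hosts named as neither ribosomal protein nor translation factor genes (40.2 to 54.7); the intervals overlap. In hosts named as translation factors it was 2 of 5. One of the 1000 strongest peaks lay at 6 of the 19, against 35 of the 192. The class went by the names rpl- and rps- and not by the protein encoded. So ubl-1 stood among the 192, as did hosts with only a sequence name, such as Y37E3.8. With only the members in ubl-1 moved, a choice made after the values were seen, the counts were 16 of 21 (76.2%, interval 52.8 to 91.8) against 89 of 190 (46.8%, interval 39.6 to 54.2). For the 1000 strongest they were 8 of 21 against 33 of 190. These 19 members were all within 953 bp of the host start, and the host start had a summit for 15 of them. Ribosomal protein genes with a nested snoRNA gene had a summit at their own start in 10 of 13 (76.9%), and those without one in 56 of 65 (86.2%). The signal values at the 14 genes ranged from 2.32 to 15.2. Replicate 1 marked 2 of the 19 and replicate 2 marked 10, with 0 marked by both. After F54E7.10, R151.11 and R151.13 (7.33), the highest pooled values were 7.22 at Y43B11AR.7 in rps-4, 7.07 at Y24D9A.9 in rpl-7A and 6.52 at B0412.7 in rps-29. F28C6.11 in rpl-26 had 5.86, D1007.20 in rpl-24.1 had 5.72, C16A3.11 in rps-13 had 5.08 and F53G12.12 in rpl-7 had 4.91.

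The hosts with several members showed that neighbours in 1 host need not be alike. Of the 24 hosts with more than 1, all members had a pooled summit in 9, some in 9 and none in 6. nol-56, whose protein is itself a core part of box C/D particles, held 4 members. K07C5.11 had 6.29 at −296 bp, a summit also called at the host start 142 bp away. K07C5.12 had 3.89 at −123 bp and K07C5.18 had 2.16 at 211 bp, while K07C5.10 had no pooled summit within 500 bp. In rpl-6, R151.11 and R151.13 had summits and R151.12, which lies between them, had none. The 3 members in top-2, the gene for DNA topoisomerase II, had none within 500 bp, although the host start had a summit of 14.4. In F58D5.5 both members had a weak summit, of 2.64 at F58D5.12 and 2.15 at F58D5.11. In Y37E3.8, Y37E3.22 had 8.61 and Y37E3.21 had none.

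By strand of the host, a pooled summit lay at 17 of 33 members on the opposite strand, 51.5% (33.5 to 69.2), and at 90 of 183 on the host strand, 49.2% (41.7 to 56.7). For the 1000 strongest peaks it was 9 of 33 and 32 of 183. Members between host exons had a summit in 52.3% (90 of 172, interval 44.6 to 60.0), and those overlapping a host exon in 38.6% (17 of 44, interval 24.4 to 54.5). One of the 1000 strongest lay at 37 of the 172 and at 4 of the 44. By chromosome the share was lowest on X, with 4 of 10 members, and highest on V, with 56.4% of 39, and none of the 10 on X had one of the 1000 strongest. With counts of this size the intervals of all these pairs overlap.

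Sequence letters divided the members only in part. In all, 9 members held the box C and box D letters (TGATGA in the first 20 bases, CTGA in the last 20), and 6 of them had a pooled summit, 4 among the 1000 strongest. Another 63 had ACA within the last 6 bases, as box H/ACA snoRNAs do, and 38 of these had a summit, 60.3% (47.2 to 72.4). The 144 members with neither had a summit in 43.8% (35.5 to 52.3). Among members 1000 bp or more from protein-coding starts it was 13 of 28 with the H/ACA letters and 42 of 100 with neither. In the outside snoRNA genes the order was the other way, with 5 of 15 (33.3%) and 41 of 110 (37.3%). The search is strict and leaves most members in neither class, so a missing match says only that these letters are not in those windows. Members with the H/ACA letters lay at a median of 1087 bp from the host start, and those with neither at 3077.5 bp.

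In the 300 bases from 250 upstream to 50 downstream of the start, both strands were searched for TATAAA and for GTTCNANNC. TATAAA occurred in 21.3% of nested snoRNA genes, 30.8% of the outside snoRNA genes and 37.9% of protein-coding genes. Within the nested genes it occurred in 26.2% of those with a pooled summit and 16.5% of those without, but in 19.5% (8 of 41) of those with one of the 1000 strongest. GTTCNANNC occurred in 17.1% of nested snoRNA genes (37), 26 of the 130 outside snoRNA genes and 8.74% of 19973 protein-coding genes. It was present in 20.6% of nested genes with a pooled summit, 13.8% of those without, and 29.3% (12 of 41) of those with one of the 1000 strongest. On the gene strand of the nested genes there were 33 matches, 29 of them upstream of the start, and on the other strand 8. The outside snoRNA genes had 19 on the gene strand, 18 of them upstream, and 8 on the other strand. Of the 300 bases searched 250 lie upstream, so these counts show no preference for that side.

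Reading the sequences of 7 of the strongest members led to a further set of letters, TGTCNGNC, on the gene strand between 100 and 40 bases before the start. Both the letters and the place were chosen after the sequences and values were seen, from 9 words looked at, so what follows is a description of these genes and carries no test. The letters stood in that place in 16 of 216 nested snoRNA genes, 7.41% (4.29 to 11.8), in 17 of 130 outside snoRNA genes, 13.1% (7.81 to 20.1), and in 0.676% of protein-coding genes (135). In the nested genes, 13 of the 25 matches on the gene strand within the 300 bases began 60 to 41 bases upstream of the start. Of the 16 genes, 13 had a pooled summit, against 94 of the 200 without the letters, and 8 had one of the 1000 strongest, against 33 of the 200. Without the members read first, 9 of 12 had a pooled summit and 4 had one of the 1000 strongest. In the outside snoRNA genes, 8 of 17 with the letters had a pooled summit, against 42 of 113 without, and 2 of 17 had one of the 1000 strongest, against 15 of 113. In F54E7.10 and F28C6.11 the match lay over a coding exon, and without these 2 the counts were 11 of 14 and 7 of 14. Over the 9 words, the count of nested genes with a match ran from 2 for GTTCGANNC to 16 for TGTCNGNC and TGTCNGC.

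The 100 bases before the start are shown for 7 members with the letters and a summit and for 2 with the letters and no summit, so that both kinds can be compared. Each is on the gene strand, 5′ to 3′, from the RefSeq assembly of WBcel235, with TGTCNGNC in capitals.
ZK994.7: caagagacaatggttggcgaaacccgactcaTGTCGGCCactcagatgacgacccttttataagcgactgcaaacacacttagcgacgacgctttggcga
Y55F3BR.9: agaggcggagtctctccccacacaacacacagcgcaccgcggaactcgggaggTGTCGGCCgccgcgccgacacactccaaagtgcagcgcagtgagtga
F01D5.12: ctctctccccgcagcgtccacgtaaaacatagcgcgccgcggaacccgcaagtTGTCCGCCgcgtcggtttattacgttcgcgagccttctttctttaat
C07A9.14: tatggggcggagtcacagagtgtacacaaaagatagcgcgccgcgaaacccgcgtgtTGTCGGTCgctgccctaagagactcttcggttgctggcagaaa
C16D9.11: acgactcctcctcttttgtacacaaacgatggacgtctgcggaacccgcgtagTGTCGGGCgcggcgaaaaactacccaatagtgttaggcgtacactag
W04D2.7: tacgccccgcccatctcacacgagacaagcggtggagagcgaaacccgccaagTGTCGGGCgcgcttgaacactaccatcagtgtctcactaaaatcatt
T06D8.11: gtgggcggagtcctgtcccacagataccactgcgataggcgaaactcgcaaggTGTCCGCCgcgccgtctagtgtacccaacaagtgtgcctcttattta
Y48A6C.10: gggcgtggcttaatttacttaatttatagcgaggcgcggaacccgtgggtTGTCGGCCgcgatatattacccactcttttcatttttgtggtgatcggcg
ZK185.9: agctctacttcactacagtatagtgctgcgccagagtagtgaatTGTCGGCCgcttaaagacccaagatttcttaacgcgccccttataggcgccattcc

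In Y55F3BR.9, F01D5.12, C16D9.11, W04D2.7 and T06D8.11 the letters began 47 bases before the start, in C07A9.14 43 bases and in ZK994.7 69 bases before it. Signal values in the pooled list among these 7 ran from 22.9 at ZK994.7 to 2.90 at T06D8.11. T06D8.11 had 3.40 in replicate 1 and 2.14 in replicate 2, with the pooled summit at 47 bp, that of replicate 1 at −17 bp and that of replicate 2 at 317 bp. W04D2.7, in the innexin gene inx-11, had 4.85 in the pooled list with its summit at the start itself (0 bp), and no summit in either replicate. C16D9.11, in rol-3, had 4.53 in the pooled list and 3.13 in replicate 2, the pooled summit at 386 bp and that of replicate 2 at −86 bp. The nearest pooled summit was 1060 bp from Y48A6C.10 and 4048 bp from ZK185.9. The letters were present at genes with strong, weak and no summits.

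The window of 500 bp decides single genes near its edge. Just inside it were C41C4.17 with its nearest summit at 466 bp, R08C7.19 at 486 bp and R151.13 at 490 bp. Just outside were C06A1.9 at −501 bp, B0524.10 at 517 bp and B0041.9 at −522 bp. C06A1.9, in cdc-48.1 (an AAA ATPase), had a summit of 23.1 in replicate 2 at −495 bp, and the summit at the host start, 343 bp away, had 31.9 in the pooled list. The 109 members with no pooled summit in the window had their nearest 501 to 11690 bp away, with a median of 1787 bp. Y38F2AR.14 had its nearest at 9741 bp, Y71G10AR.5 at 11287 bp and H04D03.5 at −11690 bp.

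The protein partners of snoRNAs were looked at with the same window. Of 8 genes for core proteins of the particles, 4 had a pooled summit at the start, where 19.0% of protein-coding genes did. For box C/D particles these were nol-56 with 6.29, fib-1 (fibrillarin) with 5.63 and nol-58 with 4.29, and snu-13 had none. For box H/ACA particles, nola-3 had 3.58, and dkc-1 (dyskerin), garr-1 and Y48A6B.3 had none. The summit of nol-56 was the only one of these among the 1000 strongest. Each of the 4 had a summit in replicate 2 and none in replicate 1, with values from 3.07 at nol-56 to 6.26 at fib-1.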

How the data were processed

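ChIP-seq of tagged CEH-82 was measured in 2 biological replicates of 1 group, per the labels. The authors deposited peak lists in narrowPeak form on ce10 and ce11, per the deposited list of files: a relaxed list for each replicate, one for pooled reads, and a thresholded one. Only the ce11 lists were used, since the annotation is of that build. The authors' lists give each peak a signal value score as deposited; the lists were made against a control, per the deposited list of files, which was not analysed here. Not given in the sources used here: peak caller, aligner, versions and the threshold of the irreproducible discovery rate. Depth per sample is unknown.

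Summits were set against gene starts of Ensembl release 115 (WBcel235) within 500 bp, with Python 3.11.15, pandas 2.3.3, numpy 2.4.6 and scipy 1.17.1. A host is the protein-coding gene whose span holds the snoRNA gene, on the same strand first and then the shortest; 4 members had more than 1 possible host. Genes of all kinds exclude piRNA genes. Shares have exact Clopper-Pearson intervals at 95%, for counting error only. With 2 samples of 1 group no test between groups exists and none was made. Sequence came from the RefSeq assembly of WBcel235; box and promoter letters were searched as the text gives them. Assigning summits to starts was tested on simulated data.

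Named genes are those with a thresholded summit, the 15 with the highest pooled value, up to 10 strong in both replicates, up to 10 in ribosomal protein hosts, the 5 hosts with most members (ties by name), 3 just inside and 3 just outside the window, the 3 farthest from a summit and the snoRNA particle proteins. Others, such as C27H6.5, F07A11.15 and the members with TGTCNGNC, were chosen after their values were seen. Members and lists were chosen with earlier results of these data known. Alternatives were other windows, host strand, shared summits counted once, each replicate alone, overlap with the gene body, a signal minimum, other peak sets and a larger distance from protein-coding starts.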

Additional observations from a re-analysis of the deposited data

How the results depend on the processing

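Of 51 alternatives run over 7 results, 32 stayed within 1.5 times the main count or within 1 SD of the median signal value. The other 19 did not, and the cause was not tested. The SD (1.02) is that of the medians of the 2 replicates, not of the values among genes. With 1 replicate alone, the count of nested snoRNA genes with a summit was 34 to 71 against 107, that with one of the 1000 strongest of the list 17 to 41 against 41, that nearer the snoRNA than the host start 30 to 60 against 93, that far from protein-coding starts 19 to 34 against 59, the outside snoRNA genes 20 to 36 against 50, and the median signal value 3.48 to 4.91 against 4.85; the lowest value of each is that of replicate 1 alone. With peaks overlapping the gene body in place of summits at the start, 71 nested genes were marked, and 11 against 17 by both replicates. A window of 250 bp gave 26 for the 1000 strongest, 10 for both replicates and 32 for the outside genes, and a window of 1000 bp gave 35 for both replicates. The thresholded list left 2 and the 300 strongest peaks 13. Peaks at or above the list's median signal gave a median of 6.29, and a distance of 2000 bp from protein-coding starts left 36 of 87 genes. No paired analysis was possible because there is only 1 group. Relaxed lists, unknown depth, fixed peak widths and 2 replicates of unequal list length limit every count.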
